A study of Homo sapiens with 12 samples.

Results

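A module of 49 genes was read at a lower level in cells given siKDM3A, an siRNA that targets the demethylase gene KDM3A, than under both control siRNAs in each of 2 human lines, A549 from a lung adenocarcinoma and SW780 from a carcinoma of the bladder. The genes were chosen by their measured values. For each gene the Affymetrix probe set of highest mean signal over 12 arrays was taken on the scale log2(signal + 16). In each line the siKDM3A mean had to lie at least 1.5-fold below the siEGFP mean and at least 1.5-fold below the siFFluc mean, both siKDM3A arrays had to lie below all 4 control arrays, and the mean control signal had to be at least 100. KDM3A itself and some genes and gene families (SFRP1, TIMP3, TIGAR, SRXN1, SCD, BTRC and symbols starting with KIF, KRT or IL1) were left out, of which 7 genes met the other conditions. The 49 genes were found among 19775 genes with a named probe set, and among the 9716 genes whose control mean was at least 100 in both lines they made up 0.504%. Because siKDM3A against the controls chose these genes, their differences under siKDM3A are given as a description, with no test. Each line had 2 arrays with siEGFP, 2 with siFFluc and 2 with siKDM3A, so that there were 6 groups of 2. The controls siEGFP and siFFluc are named for reporter proteins, enhanced green fluorescent protein and firefly luciferase. All cells had been transfected with a duplex at 100 nM by lipofection, and RNA was taken after 24 h. The medium was RPMI1640 for A549 and Leibovitz L-15 for SW780, so line and medium cannot be told apart. In such bulk RNA, fewer cells with a transcript and less of it per cell cannot be told apart either. The labels name 1 siRNA against KDM3A, and an effect of less KDM3A and any other effect of that duplex cannot be told apart.

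A small interfering RNA is a short duplex of which 1 strand is loaded into an Argonaute protein and guides the cutting of a matching messenger RNA. KDM3A is a Jumonji enzyme that takes methyl groups from H3K9, a modification found at silent genes, and it is known as a coactivator of nuclear receptors and as a regulator of hypoxia-responsive and cell cycle genes.

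The 12 arrays had median signals of 50.3 to 59.1, and 38.9% to 41.6% of probe sets read above 100. KDM3A stood at 702 ± 14.1 (mean ± SD, n = 2) under siKDM3A against 1391 ± 106 (n = 4) in the A549 controls, and at 209.9 ± 18.5 against 394 ± 33.6 in the SW780 controls, so 50.5% and 53.3% of its signal was left. The 2 siFFluc arrays of SW780 were the most uneven pair, with an SD of 0.48 for the log2 difference between replicates over all genes tested, against 0.36 to 0.44 in the other 5 pairs. Of the epithelial markers 4 of 4 had a control mean of at least 100 in both lines. Of the 7 urothelial markers measured 6 did in SW780, among them GATA3 at 12661 and UPK1B at 10395, and 4 in A549, where the same genes read 358 and 660.4. UPK3A, a defining uroplakin, was near 0 in SW780 (6.35). Of the 5 lung alveolar markers measured 2 reached 100 in A549, while NKX2-1 (9.90), SFTPC (39.1) and SFTPD (8.38) did not. In SW780 2 did as well, SFTPB (127) and SFTPC (110), so this count did not set the lines apart. Leukocyte markers reached 100 in neither line (0 of 3), and of the 4 fibroblast markers COL1A1 and LUM did in both. Whether replicates came from separate cultures is not given, so errors and p-values cover only the spread among these arrays, which can be technical. In the model this is the spread within the pairs of replicates. A difference between siEGFP and siFFluc does not enter the error of siKDM3A against both.

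Summed over the 49 genes, the signal was 47952 and 47352 on the siKDM3A arrays of A549 and 98836 to 99548 on its 4 control arrays. In SW780 the sum was 55879 and 58324 under siKDM3A and 100502.5 to 107751 in the controls. The median gene of the module stood at 47.7% of its control level in A549 (range 30.3% to 64.7%) and at 54.8% in SW780 (34.5% to 63.4%). On the log2(signal + 16) scale the median difference from the controls was -1.06 in A549 (-1.65 to -0.62) and -0.86 in SW780 (-1.46 to -0.64). Over the 9716 genes with a control mean of at least 100 in both lines it was -0.0007 and 0.01. A gap of this kind follows from the rule. A linear model (limma) across the 14061 genes kept after a filter on dim probe sets called 6.35% of them lower in A549 and 6.15% in SW780. The rule used the same contrast, so that all 49 genes are among those called in both lines was made likely by their choice and is no test of them. Of those genes 19.9% had both siKDM3A arrays under every control array in A549, 13.3% had them so in SW780, and 5.74% in both. These shares are given as background only.

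**Figure D1:**
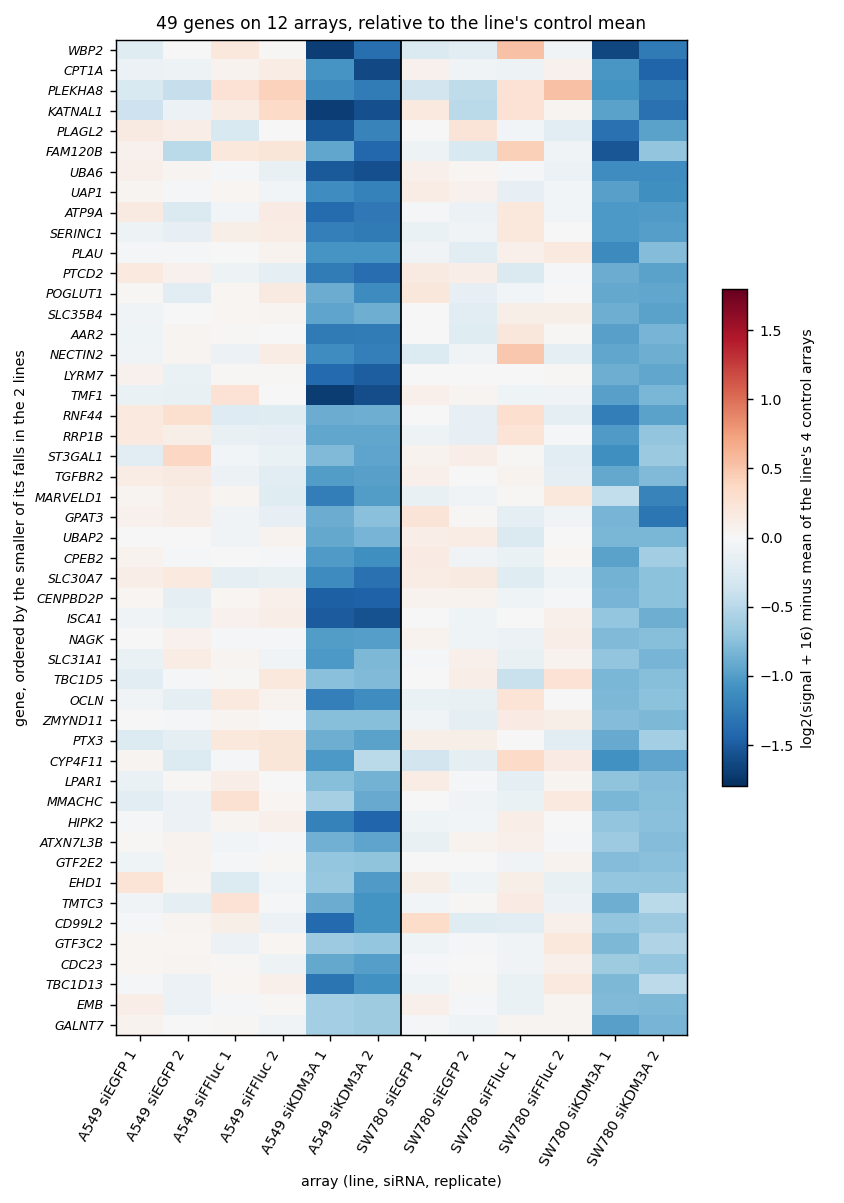
Each row is a gene of the module and each column an array, grouped by line and siRNA. Colour gives log2(signal + 16) minus the mean of the line's 4 control arrays, and rows are ordered by the smaller of the falls in the 2 lines. The 4 siKDM3A columns are blue in every row, and single control arrays lie from -0.49 to 0.53 around their mean, with PLEKHA8 higher on the siFFluc than on the siEGFP arrays of both lines.

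The threshold lay within a dense range of values. Just inside it were MMACHC, GALNT7 and TBC1D13, whose smallest of 4 differences (2 lines, 2 control siRNAs) were -0.595, -0.60 and -0.61. Just outside were EPHA2, ZBTB4 and N4BP2L2 at -0.584, -0.582 and -0.579. Only 4 genes, WBP2, CPT1A, PLAGL2 and UBA6, lay at least 1 below each control siRNA in both lines. In the text below a level is a signal, given as mean ± SD over 2 siKDM3A and 4 control arrays of a line, and a difference is siKDM3A minus the mean of both control groups on the log2(signal + 16) scale, given with the standard error of the model. Genes are ordered by their known roles, a grouping made after their names were known and not tested. Signals of different genes are not compared, since each is read by its own probe set.

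Of the 49 genes 12 encode proteins of transcription and RNA, or a related pseudogene. WBP2, a partner of the Hippo pathway factor YAP, had the largest difference that both lines shared. WBP2 read 785 and 918 under siEGFP, 1049.9 and 925 under siFFluc and 272 and 349 under siKDM3A in A549. In SW780 WBP2 read 661 and 691 under siEGFP, 1155 and 757 under siFFluc and 244 and 319 under siKDM3A. No siKDM3A array came near the controls, and 33.7% and 34.5% of the control signal was left (differences of -1.52 ± 0.17 in A549 and -1.46 ± 0.17 in SW780). The highest of its SW780 controls was siFFluc replicate 1. PLAGL2 is a zinc finger transcription factor. PLAGL2 read 692 and 671 under siEGFP, 508 and 618 under siFFluc and 204 and 259 under siKDM3A in A549. In SW780 PLAGL2 read 773 and 908 under siEGFP, 738 and 668 under siFFluc and 293 and 385 under siKDM3A. Its groups were well apart, with differences of -1.37 ± 0.14 in A549 and -1.15 ± 0.14 in SW780. FAM120B is known as a coactivator of the nuclear receptor PPARG. FAM120B read 213 and 139 under siEGFP, 233 and 238 under siFFluc and 97.7 and 65.8 under siKDM3A in A549. In SW780 FAM120B read 268 and 233 under siEGFP, 388 and 272 under siFFluc and 87.6 and 169 under siKDM3A. The control arrays of this dim gene were uneven, and SW780 siKDM3A replicate 2 was the closest to them (differences of -1.18 ± 0.26 in A549 and -1.12 ± 0.26 in SW780).

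HIPK2, a kinase that phosphorylates p53 and other nuclear proteins, was the most line-dependent in level. HIPK2 read 3662 and 3473 under siEGFP, 3856 and 4005 under siFFluc and 1595 and 1379 under siKDM3A in A549. In SW780 HIPK2 read 357 and 365 under siEGFP, 410.3 and 375 under siFFluc and 223 and 217 under siKDM3A. The siKDM3A arrays of both lines lay below their controls, at 39.7% and 58.4% of them. CPEB2, which binds polyadenylation elements in the tails of messenger RNAs and regulates their translation, also had a higher level in A549. CPEB2 read 1568 and 1479 under siEGFP, 1489 and 1471 under siFFluc and 730.3 and 693 under siKDM3A in A549. In SW780 CPEB2 read 289.9 and 248 under siEGFP, 238 and 266 under siFFluc and 125 and 163 under siKDM3A. ZMYND11 reads methylated lysine on a histone variant in gene bodies. ZMYND11 read 4242 and 4177 under siEGFP, 4431 and 4268 under siFFluc and 2506 and 2505 under siKDM3A in A549. In SW780 ZMYND11 read 4555 and 4229.7 under siEGFP, 5292 and 5122 under siFFluc and 2781 and 2725 under siKDM3A. The 2 control siRNAs of SW780 separated here, with siFFluc above siEGFP. The other 6 covered several steps from promoter to ribosome. GTF2E2 is the smaller subunit of TFIIE, which acts with RNA polymerase II, and stood at 1649 ± 32.9 against 2711 ± 109.7 in A549 and at 1482 ± 24.3 against 2537 ± 90.2 in SW780. GTF3C2, a subunit of the polymerase III factor TFIIIC, stood at 1940.0 ± 48.5 against 3109 ± 155 in A549 and at 1762 ± 229.7 against 2808 ± 254 in SW780. Both general factors kept 60.8% and 62.4% of the control signal in A549. AAR2, which helps assemble a spliceosomal particle, stood at 695 ± 3.75 against 1689.8 ± 61.6 in A549 and at 809 ± 58.6 against 1539 ± 186 in SW780. The nucleolar protein gene RRP1B stood at 2790.2 ± 0.0707 against 5369.5 ± 603 in A549 and at 2966 ± 453 against 5431 ± 691 in SW780. ATXN7L3B, a relative of a subunit of the SAGA deubiquitinase, stood at 1384 ± 50.7 against 2611 ± 93.8 in A549 and at 1589 ± 100.5 against 2619 ± 175 in SW780. AAR2 had the largest difference of these 5 in A549, -1.26. CENPBD2P is annotated as a transcribed pseudogene, so related genes may share its probe set. It stood at 590.1 ± 4.95 against 1663 ± 126 in A549 and at 933 ± 42.4 against 1623 ± 80.2 in SW780.

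That the members were low together in both lines follows from the rule. The sequences upstream of the genes with the largest shared differences are shown as a description. Each is 250 bases before to 50 bases after a RefSeq transcription start in GRCh38.p14, the first window listed for the gene, read 5′ to 3′ on the gene's strand. Capitals mark CCAAT boxes and GC boxes (GGGCGG) on either strand. A match describes the letters and shows no bound factor.
WBP2 promoter, chr17:75856387-75856686, minus strand: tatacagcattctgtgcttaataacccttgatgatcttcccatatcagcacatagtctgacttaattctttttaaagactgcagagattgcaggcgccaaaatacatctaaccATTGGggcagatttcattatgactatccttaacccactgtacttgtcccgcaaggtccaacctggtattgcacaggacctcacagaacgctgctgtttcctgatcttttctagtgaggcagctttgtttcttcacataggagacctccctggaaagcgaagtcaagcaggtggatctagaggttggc
CPT1A promoter, chr11:68844228-68844527, minus strand: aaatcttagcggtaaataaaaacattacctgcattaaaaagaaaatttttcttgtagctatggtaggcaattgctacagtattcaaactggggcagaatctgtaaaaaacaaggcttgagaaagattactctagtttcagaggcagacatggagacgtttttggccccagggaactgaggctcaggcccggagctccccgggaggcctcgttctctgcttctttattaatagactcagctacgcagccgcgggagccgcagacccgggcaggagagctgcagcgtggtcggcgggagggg
PLEKHA8 promoter, chr7:30028162-30028461, plus strand: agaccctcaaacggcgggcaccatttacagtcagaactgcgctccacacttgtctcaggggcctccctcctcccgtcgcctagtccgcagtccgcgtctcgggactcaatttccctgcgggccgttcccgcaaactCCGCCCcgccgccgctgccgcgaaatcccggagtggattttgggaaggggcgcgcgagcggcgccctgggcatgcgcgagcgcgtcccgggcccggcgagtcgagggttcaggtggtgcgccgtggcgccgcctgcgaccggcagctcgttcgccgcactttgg
KATNAL1 promoter, chr13:30307502-30307801, minus strand: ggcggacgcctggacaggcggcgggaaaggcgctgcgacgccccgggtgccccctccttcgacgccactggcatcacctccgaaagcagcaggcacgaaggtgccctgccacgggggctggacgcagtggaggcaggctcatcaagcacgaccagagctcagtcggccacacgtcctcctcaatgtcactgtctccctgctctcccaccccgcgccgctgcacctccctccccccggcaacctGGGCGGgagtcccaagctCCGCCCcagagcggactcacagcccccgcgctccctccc
The windows differ in composition: those of WBP2 and CPT1A have 4 and 13 CpG pairs and a GC content of 44.7% and 50%, those of PLEKHA8 and KATNAL1 have 41 and 26 and a GC content of 70% and 71.3%. WBP2 has 1 CCAAT box and no GC box, CPT1A has neither, PLEKHA8 has 1 GC box and KATNAL1 has 2.

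Of the 49 genes 10 act on sugars and glycoproteins or in the Golgi, and 3 of them lie on the route to UDP-N-acetylglucosamine or its use. UAP1 makes this activated sugar in the last step of its synthesis. UAP1 read 3589.7 and 3379.5 under siEGFP, 3579.8 and 3373 under siFFluc and 1589.5 and 1489.9 under siKDM3A in A549. In SW780 UAP1 read 2870.0 and 2760.5 under siEGFP, 2358 and 2526 under siFFluc and 1328 and 1216 under siKDM3A. Replicates were close, and the differences were -1.17 ± 0.07 in A549 and -1.04 ± 0.07 in SW780. NAGK, which returns free N-acetylglucosamine to that route, stood at 1328 ± 8.49 against 2665 ± 90.7 in A549 and at 3761 ± 50.6 against 6506 ± 492 in SW780. SLC35B4 carries nucleotide sugars into the Golgi. SLC35B4 read 3876 and 4036 under siEGFP, 4151 and 4223 under siFFluc and 2109 and 2198 under siKDM3A in A549. In SW780 SLC35B4 read 733 and 647 under siEGFP, 796 and 794 under siFFluc and 395 and 372 under siKDM3A. On this probe set the relative difference was alike in both lines despite their unlike levels, -0.91 ± 0.07 in A549 and -0.92 ± 0.07 in SW780. Other SLC35B4 probe sets were not alike in the lines. They read -1.05 and -0.75 in A549 and, in the same order, -0.39 and -1.04 in SW780. PLEKHA8 encodes FAPP2, which carries glucosylceramide within the Golgi. PLEKHA8 read 359 and 324 under siEGFP, 526 and 585 under siFFluc and 189 and 173 under siKDM3A in A549. In SW780 PLEKHA8 read 538 and 489.9 under siEGFP, 817 and 987 under siFFluc and 314 and 273 under siKDM3A. In both lines the siFFluc arrays were the highest and the siKDM3A arrays the lowest, with siEGFP between them (differences of -1.20 ± 0.12 in A549 and -1.17 ± 0.12 in SW780).

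The transferases of this group add sugars to proteins. GALNT7, which extends O-linked glycans with N-acetylgalactosamine, stood at 2137 ± 24.7 against 3303 ± 116 in A549 and at 1911 ± 124 against 3602 ± 146 in SW780. ST3GAL1 caps O-linked chains with sialic acid and stood at 89.0 ± 7.85 against 177 ± 36.4 in A549 and at 257 ± 57.8 against 482 ± 45.7 in SW780. POGLUT1, which adds glucose to the Notch receptors, stood at 247 ± 30.5 against 514 ± 53.0 in A549 and at 197 ± 1.77 against 390.1 ± 43.3 in SW780. TMTC3, which attaches mannose to cadherins in the endoplasmic reticulum, had a larger difference in A549 (-0.98 against -0.68). It stood at 775 ± 73.2 against 1554 ± 206 in A549 and at 1559.8 ± 296 against 2499.6 ± 193 in SW780. Other TMTC3 probe sets read -1.03 and -0.32 in A549 and, in the same order, -1.01 and -0.48 in SW780. The zinc importer of the Golgi, SLC30A7, stood at 484 ± 52.5 against 1166 ± 143 in A549 and at 1186 ± 65.9 against 2070.0 ± 254 in SW780. TMF1, a coiled-coil protein of the Golgi, stood at 681 ± 41.6 against 2184 ± 295 in A549 and at 1634 ± 127 against 3065 ± 171 in SW780. Its difference in A549, -1.65, was the lowest value in the module. Over all 10 genes the differences ran from -1.65 to -0.62 in A549 and from -1.17 to -0.68 in SW780.

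Endosomes are represented by 4 genes. ATP9A, a lipid-flipping ATPase of recycling endosomes, was read several-fold higher in SW780 than in A549. ATP9A read 754 and 562 under siEGFP, 653 and 746 under siFFluc and 248 and 268 under siKDM3A in A549. In SW780 ATP9A read 3548 and 3393 under siEGFP, 4179 and 3532 under siFFluc and 1769 and 1786 under siKDM3A. All siKDM3A arrays lay well below the lowest control (differences of -1.33 ± 0.11 in A549 and -1.03 ± 0.11 in SW780). EHD1, which shapes recycling tubules, stood at 922 ± 150.3 against 1679 ± 244 in A549 and at 662 ± 7.92 against 1092 ± 91.2 in SW780. The Rab regulator TBC1D5, which acts with retromer, stood at 746 ± 16.5 against 1290.5 ± 143 in A549 and at 475 ± 13.6 against 849 ± 158 in SW780. TBC1D13, another regulator of Rab proteins, stood at 288 ± 32.7 against 684 ± 39.9 in A549 and at 313 ± 55.4 against 495 ± 47.8 in SW780. Its SW780 difference of -0.64 was the smallest in that line.

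Proteins of the cell surface and secreted proteins made up 11 genes. PLAU encodes urokinase, the protease that activates plasminogen outside the cell. PLAU read 6331 and 6412 under siEGFP, 6470.3 and 6748 under siFFluc and 3088 and 3099.7 under siKDM3A in A549. In SW780 PLAU read 4947 and 4470.0 under siEGFP, 5506 and 5843 under siFFluc and 2330.3 and 2997 under siKDM3A. About equal shares were left in the lines, 47.7% and 51.3%. SERINC1 is a membrane protein with many spans. SERINC1 read 3294 and 3157 under siEGFP, 3789 and 3837 under siFFluc and 1489.7 and 1444 under siKDM3A in A549. In SW780 SERINC1 read 4544 and 4708 under siEGFP, 5606 and 4919.5 under siFFluc and 2410.4 and 2479 under siKDM3A. Its 2 siKDM3A arrays differed little from each other in either line. EMB encodes embigin, a chaperone of lactate transporters. EMB read 758 and 649 under siEGFP, 677 and 705 under siFFluc and 449 and 443 under siKDM3A in A549. In SW780 EMB read 4337 and 4024 under siEGFP, 3772 and 4219 under siFFluc and 2351 and 2316 under siKDM3A. EMB was one of the 11 genes with the larger difference in SW780. CD99L2 is an adhesion protein related to CD99. CD99L2 read 1116 and 1178 under siEGFP, 1224 and 1057 under siFFluc and 425 and 531 under siKDM3A in A549. In SW780 CD99L2 read 197 and 129 under siEGFP, 130.0 and 164 under siFFluc and 87.4 and 91.1 under siKDM3A. At the low SW780 level the siKDM3A arrays lay below the lowest control by less than the controls differed among themselves.

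Junction genes were OCLN and NECTIN2. OCLN, which encodes the tight junction protein occludin, stood at 543 ± 31.6 against 1253 ± 134 in A549 and at 3776 ± 127 against 6488 ± 838 in SW780. NECTIN2, an adhesion receptor of adherens junctions, stood at 586 ± 33.4 against 1341 ± 106 in A549 and at 988 ± 33.2 against 1907 ± 489.7 in SW780. Its SW780 siFFluc replicate 1 read 2629.7 against 1645 in replicate 2, so the spread of that control group is carried by 1 array. MARVELD1, which shares the MARVEL membrane domain with occludin, stood at 531 ± 66.0 against 1176 ± 118 in A549 and at 321 ± 121 against 563 ± 57.5 in SW780. In SW780 its siKDM3A replicates were uneven, at 406 and 235. Signalling receptors were TGFBR2 and LPAR1. TGFBR2, the type II receptor that binds TGF-beta and starts SMAD signalling, stood at 1809 ± 31.3 against 3624 ± 445 in A549 and at 2131 ± 137 against 3893 ± 295 in SW780. LPAR1, a receptor for lysophosphatidic acid, stood at 885 ± 37.1 against 1567 ± 107 in A549 and at 1065 ± 26.8 against 1813 ± 156 in SW780. The copper importer gene SLC31A1 stood at 968 ± 106 against 1846 ± 145 in A549 and at 1571 ± 105 against 2704 ± 181 in SW780. PTX3, a secreted pattern-recognition protein of innate immunity, stood at 314 ± 13.6 against 618 ± 106 in A549 and at 237 ± 35.4 against 412 ± 42.5 in SW780. Of these 7 genes OCLN had the largest difference in A549 (-1.18).

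The ubiquitin system and microtubules account for 5 genes. UBA6 activates ubiquitin, and also the ubiquitin-like protein FAT10, for transfer to target proteins. UBA6 read 2013 and 1962 under siEGFP, 1870.1 and 1723 under siFFluc and 651 and 618 under siKDM3A in A549. In SW780 UBA6 read 3387 and 3248 under siEGFP, 3120.3 and 2959 under siFFluc and 1449 and 1454 under siKDM3A. Replicates were nearly equal and the groups far apart (differences of -1.55 ± 0.07 in A549 and -1.12 ± 0.07 in SW780). KATNAL1 is a catalytic subunit of the katanin family, which severs microtubules. KATNAL1 read 552 and 664 under siEGFP, 792 and 918 under siFFluc and 212 and 230.5 under siKDM3A in A549. In SW780 KATNAL1 read 381 and 235 under siEGFP, 407 and 347 under siFFluc and 164 and 122 under siKDM3A. The A549 siFFluc arrays were the highest, and 30.3% of the control signal was left in A549, the smallest share in the module. CDC23, a subunit of the anaphase-promoting complex that marks mitotic proteins for destruction, stood at 1420.5 ± 52.7 against 2767 ± 119 in A549 and at 2121 ± 47.8 against 3379 ± 160.5 in SW780. UBAP2, a protein with a ubiquitin-associated domain, stood at 1605 ± 67.7 against 2959 ± 114 in A549 and at 889 ± 4.31 against 1593 ± 196 in SW780. RNF44, a RING finger protein, stood at 837 ± 5.44 against 1582 ± 296 in A549 and at 637 ± 88.2 against 1394 ± 222 in SW780. RNF44 was one of the few with the larger difference in SW780 (-1.10 against -0.89).

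Mitochondrial and lipid enzymes numbered 7. CPT1A is the gatekeeper for the entry of long-chain fatty acids into mitochondria. CPT1A read 955 and 968 under siEGFP, 1076 and 1126 under siFFluc and 484 and 323 under siKDM3A in A549. In SW780 CPT1A read 266 and 238 under siEGFP, 233 and 264 under siFFluc and 112 and 82.0 under siKDM3A. In both lines siKDM3A replicate 2 was the lowest array, and 39.1% and 38.8% of the control signal was left. PTCD2 is a mitochondrial protein of the pentatricopeptide family, which handles organelle RNA. PTCD2 read 1740.5 and 1621 under siEGFP, 1447 and 1374 under siFFluc and 636 and 587 under siKDM3A in A549. In SW780 PTCD2 read 1499 and 1454 under siEGFP, 1109 and 1312 under siFFluc and 709.9 and 678 under siKDM3A. The siFFluc arrays lay below the siEGFP arrays in both lines and the siKDM3A arrays below both. ISCA1, which builds iron-sulfur clusters in mitochondria, stood at 2073 ± 80.3 against 6033 ± 476 in A549 and at 2466 ± 212 against 4261 ± 205 in SW780. LYRM7, an assembly factor of respiratory complex III, stood at 599 ± 24.6 against 1662 ± 102 in A549 and at 969 ± 28.5 against 1828 ± 19.6 in SW780. Both had a larger difference in A549, -1.53 and -1.45. GPAT3, which starts glycerolipid synthesis from glycerol phosphate, stood at 1760.2 ± 129.9 against 3126 ± 260.1 in A549 and at 549.3 ± 128 against 1164 ± 144 in SW780. CYP4F11, a cytochrome P450 that hydroxylates fatty acids, stood at 61.5 ± 20.8 against 114 ± 16.8 in A549 and at 199 ± 15.1 against 427 ± 91.8 in SW780. MMACHC, which processes cobalamin, stood at 101 ± 17.3 against 181 ± 28.8 in A549 and at 177 ± 5.44 against 319.5 ± 31.0 in SW780. CYP4F11 and MMACHC were dim in A549, and at such signals the pseudocount of 16 makes a difference look smaller.

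The lines were then set side by side. The difference was larger in A549 for 38 of the 49 genes and larger in SW780 for 11. On the chosen probe sets the gap between lines was widest for TMF1, ISCA1 and CENPBD2P. Their differences were 0.75, 0.74 and 0.68 smaller in SW780. Other CENPBD2P probe sets showed little gap, at -0.90 and -0.44 in A549 and -0.74 and -0.40 in SW780. Those of TMF1 and ISCA1 differed far less from the controls and are given below. In the other direction GALNT7, CYP4F11 and GPAT3 led, with SW780 minus A549 values of -0.29, -0.26 and -0.25. For GALNT7 this held for the chosen probe set only, since the second read -0.75 in A549 and -0.66 in SW780. SLC35B4, GTF3C2 and ST3GAL1 differed between lines by at most 0.02 in size on the chosen probe sets. Across the 49 genes the 2 differences had a Pearson r of 0.41, a description over genes that share their arrays and were chosen to be low in both. At most 50% of the control signal was left for 29 genes in A549, for 13 in SW780 and for 10 in both.

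**Figure D2:**
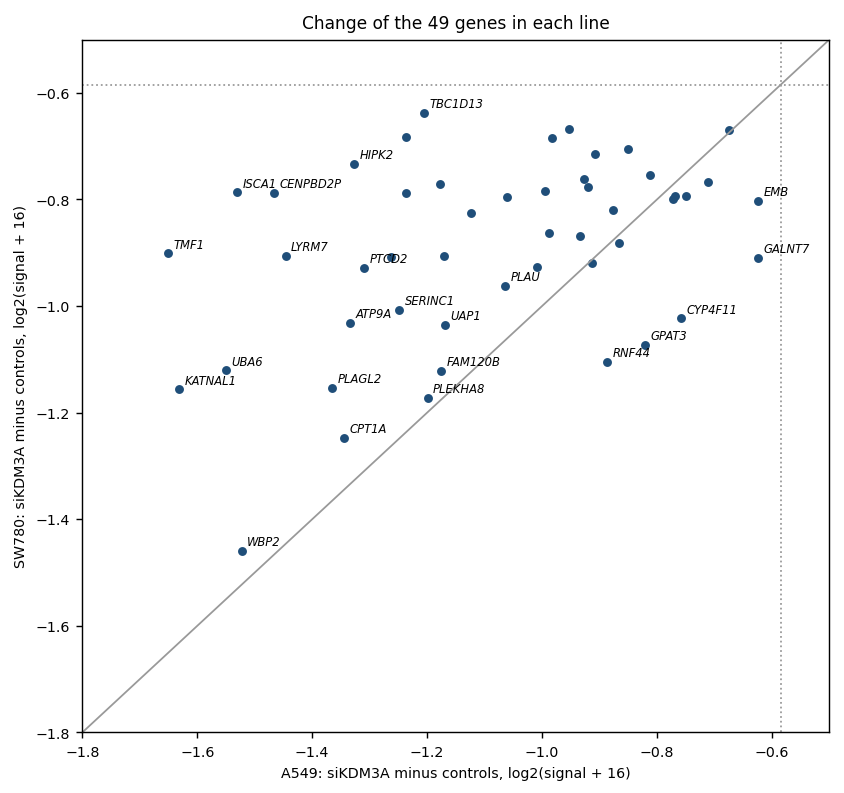
Each point is a gene of the module, with its difference under siKDM3A in A549 (x axis) and in SW780 (y axis) on the log2(signal + 16) scale. The solid line marks equal values and the dotted lines the fold of the rule. Most points lie above the line of equal values, which is a larger difference in A549 (38 of 49), and WBP2 is the lowest point in SW780 at -1.46.

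The array holds further probe sets for 38 of the genes, 85 in all, and 56 of these, from 31 genes, had a control mean of at least 100 in both lines. They are further readings of the same genes on the same arrays, so they are described and not tested. The siKDM3A mean was lower in both lines for 50 of the 56, and for 34, from 22 genes, the pair of siKDM3A arrays lay under every control array in both lines, beside 5.74% of all genes tested. That background counts 1 probe set per gene, dimmer ones included, so the shares are not like for like. The genes had also been chosen for lying under all controls on these same arrays. UBA6 was among them, with 3 further probe sets at -0.58, -0.72 and -0.97 in A549 and -0.73, -0.59 and -0.71 in SW780. So was HIPK2, with 3 at -1.01 to -0.72 in A549 and -0.75 to -0.58 in SW780. The second FAM120B probe set gave -1.35 and -1.09, and that of TBC1D13 -1.46 and -1.75. For these genes the lower signal did not rest on 1 probe set. Some of the 22 also had a probe set that differed little in 1 line or in both. Examples were NECTIN2 (-0.11 in A549 and -0.26 in SW780), LPAR1 (-0.32 and -0.08) and GTF3C2 (-0.15 in each).

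In 9 genes no further measured probe set lay below all controls in both lines: ATXN7L3B, CDC23, ISCA1, KATNAL1, PLAGL2, PLEKHA8, PTCD2, RRP1B and TMF1. ISCA1 was the plainest case. Its chosen probe set read -1.53 in A549 and -0.79 in SW780, while the 2 others, at control means of 4047 and 1673 in A549, read -0.18 and 0.00 there and -0.0028 and 0.04 in SW780. TMF1 had 3 others, at -0.22, -0.45 and -0.07 in A549 and 0.24, 0.15 and 0.07 in SW780. PLEKHA8 had 2, both dim, at -0.0031 and 0.08 in A549. The second CDC23 probe set was lower in A549 (-0.37) and higher in SW780 (0.43). The PLAGL2 and PTCD2 ones were lower in both lines by less, at -0.48 and -0.55 and at -0.69 and -0.27. The ATXN7L3B one read -0.71 in A549 and -0.23 in SW780, the KATNAL1 one -0.13 and -0.35, and the RRP1B one -0.19 and -0.09. For ISCA1, TMF1, PLEKHA8 and CDC23 a lower level of the whole transcript in both lines was therefore not seen by all probe sets. For KATNAL1 and RRP1B the second probe set differed far less than the chosen one. Which transcripts each probe set reads was not tested. A further 18 genes, WBP2 and CPT1A among them, had no second probe set measured in both lines. Further CPT1A probe sets with a control mean above 100 in A549 but not in SW780 differed far less than the chosen one. They read -0.22 and -0.11 in A549 and -0.34 and -0.35 in SW780.

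**Figure D3:**
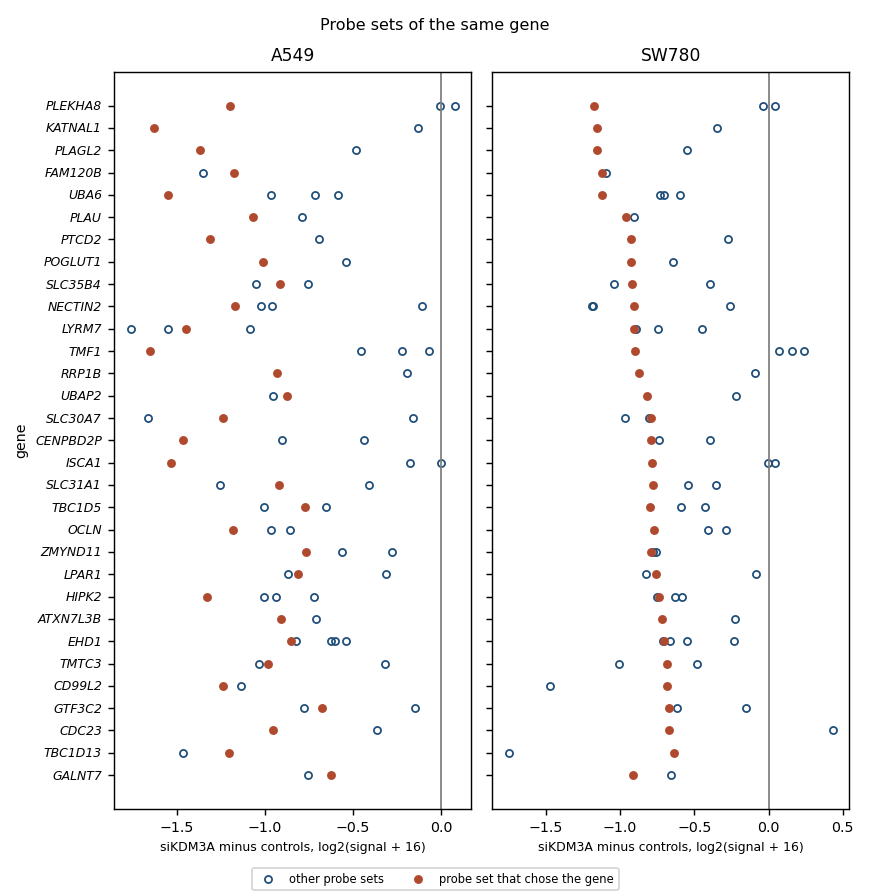
For the 31 genes with further probe sets of control mean at least 100 in both lines, the filled point is the probe set that chose the gene and open points are the others, as siKDM3A minus controls on the log2(signal + 16) scale in A549 (left) and SW780 (right). Open points lie left of 0 in both lines for 50 of 56 probe sets, and those of ISCA1 and PLEKHA8 lie within 0.18 of 0.

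The control levels of the 49 genes in the lines were compared next, a difference the rule did not use beyond the minimum signal. Control SW780 was higher than control A549 for 20 genes (30.1% of all genes tested) and lower for 18 (38.8%) by limma, adjusted over 14061 genes, in all 38 of 49 or 77.6%. Over all genes tested 68.9% were called, and among genes with a control mean of at least 100 in both lines 76.0%, so the module was called about as often as its background. The 4 control arrays of a line lay entirely on 1 side of those of the other for 32 genes (65.3%), against 59.1% of all genes tested. The split depends on scaling: with all arrays brought to a common median 26 genes were higher and 15 lower in SW780, as the median of all genes went from -0.11 to 0.10, and 7 genes changed sign (AAR2, CENPBD2P, GTF2E2, GTF3C2, PTCD2, RNF44 and WBP2).

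HIPK2 had the largest gap, with 3749 ± 231 (SD, n = 4) in A549 and 377 ± 23.5 in SW780 (SW780 minus A549 -3.26 ± 0.07, adjusted p = 1.94e-13 by limma). CD99L2 (-2.78 ± 0.14, adjusted p = 7.73e-10), CPEB2 (-2.46 ± 0.10, adjusted p = 8.37e-11) and SLC35B4 (-2.43 ± 0.06, adjusted p = 7e-13) were also lower in SW780 by limma. The array values above show no overlap for any of the 4. The lipid enzymes CPT1A (-1.97 ± 0.13, adjusted p = 1.73e-08) and GPAT3 (-1.42 ± 0.09, adjusted p = 1.35e-08) were lower in SW780 by the same test. In the other direction EMB stood at 4088 ± 247 in SW780 and 697 ± 46.5 in A549 (2.53 ± 0.07, adjusted p = 1.46e-12 by limma). ATP9A (2.41 ± 0.09, adjusted p = 5.89e-11) and OCLN (2.36 ± 0.07, adjusted p = 2.64e-12) were likewise higher in SW780 by limma, and NAGK (1.28 ± 0.06, adjusted p = 3.51e-10), ST3GAL1 (1.38 ± 0.15, adjusted p = 2.44e-06) and CYP4F11 (1.76 ± 0.16, adjusted p = 3.51e-07) less so. Of the 14 genes that differed at least 2-fold, as called, all kept the call without any 1 array. No difference was called for 11 genes, among them WBP2 (-0.20 ± 0.14) and RRP1B (0.01 ± 0.07), whose control arrays overlapped between lines. Among genes with a large gap in level, the share left on the chosen probe set was alike for SLC35B4 (52.9% in A549 and 51.7% in SW780) and CPT1A. The other SLC35B4 probe sets, given above, differed between lines. The share left on the chosen probe set was smaller in A549 for HIPK2 (39.7% against 58.4%) and CD99L2 (41.8% against 57.6%). Another CD99L2 probe set went the other way. It read 309 against 701 in the A549 controls (-1.14) and 31.25 against 117 in the SW780 controls (-1.47).

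**Figure D4:**
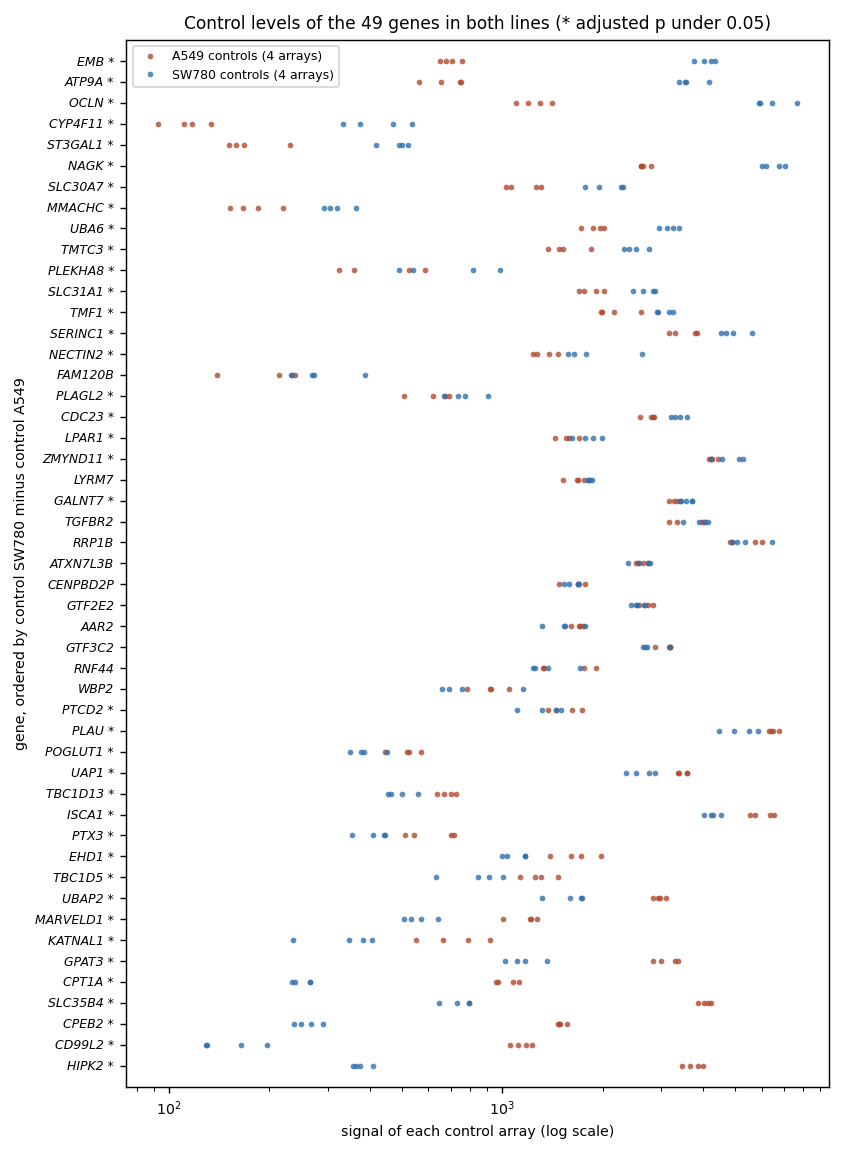
Each row is a gene of the module and each point a control array, with A549 in red and SW780 in blue, on a log scale of signal. Rows are ordered by control SW780 minus control A549, and an asterisk marks an adjusted p under 0.05 (38 genes). HIPK2 at the bottom and EMB at the top show the widest gaps, and the middle rows overlap.

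The 2 control siRNAs were compared with each other to see how far the reference itself varied for these genes. In A549 siFFluc differed from siEGFP for 1 of the 49 genes (limma, background 2.92% of all genes tested) and in SW780 for 2 (5.57%), shares of 2.04% and 4.08%. At an unadjusted p under 0.05 there were 13 (26.5%, against 12.8% of all genes tested) and 14 (28.6%, against 20.1%). PLEKHA8 was higher under siFFluc in both lines, by 0.68 ± 0.14 in A549 (limma adjusted p = 0.0217, 0.0133 to 0.181 over the alternatives) and 0.79 ± 0.14 in SW780 (limma adjusted p = 0.00803, 0.00525 to 0.083). The A549 call ended without any 1 of the 4 A549 control arrays (adjusted p = 0.0623 without siEGFP replicate 1, 0.166 without siEGFP replicate 2, 0.0775 without siFFluc replicate 1 and 0.181 without siFFluc replicate 2), and the SW780 call without SW780 siEGFP replicate 2. ZMYND11 was higher under siFFluc in SW780 (0.25 ± 0.07, limma adjusted p = 0.0465), a call kept in 1 of the 12 fits that leave out an array and lost without SW780 siEGFP replicate 2 at its highest p (0.297). Without SW780 siFFluc replicate 2, the uneven pair, 11 genes were called in SW780, 13.7% of all genes being called then. The control difference itself differed between lines for 0 of the 49 genes by limma, beside 0.0213% of all genes (at an unadjusted p under 0.05 for 4 or 8.16%, beside 11.3%), and for 3 (RNF44, RRP1B and TBC1D5) without SW780 siFFluc replicate 2.

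The same rule was also counted in other directions. The mirrored rule, siKDM3A above both controls, found 1 gene, SLC35A1, against the 49 below. With siFFluc in the place of siKDM3A the rule found 44 genes below and 3 above, 1 of them PLEKHA8, and with siEGFP 10 below and 3 above. A set lowered in both lines of a size near that of the module was thus present for 1 of the control siRNAs too, and for all 3 siRNAs more genes lay below than above. These counts share arrays and carry no test.

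Genes that earlier work in other cells names as regulated by KDM3A were listed from general knowledge, 16 in all. Of these 10 passed the filter on dim probe sets, and 0 of them belong to the module, CCND1, GDF15 and the rest missing its rule. In A549 2 were higher and 2 lower, 4 of 10 where 11.7% of all genes were called, and in SW780 1 was higher and 1 lower, 2 of 10 where 11.8% were. The list median was -0.06 in A549 and 0.12 in SW780, against -0.02 and 0.03 over all genes tested. ADM, which encodes adrenomedullin, a vasodilator peptide induced by hypoxia, rose in both lines. It was at 11039 ± 73.2 against 7945 ± 607 (0.48 ± 0.07, limma adjusted p = 0.00068) in A549 and at 5635 ± 296 against 4207 ± 209.9 (0.42 ± 0.07, limma adjusted p = 0.00197) in SW780. The cytokine gene GDF15 fell in A549, to 1267 ± 99.5 against 2049 ± 682 (-0.63 ± 0.08, limma adjusted p = 0.000406), and stood at 1482 ± 17.1 against 1339.7 ± 70.5 (0.15 ± 0.08, limma adjusted p = 0.305) in SW780. Its A549 arrays read 1355 and 1579.5 under siEGFP, 2545 and 2717 under siFFluc and 1337 and 1196 under siKDM3A, so siFFluc stood far above the rest and siKDM3A lay just under siEGFP. The cyclin D1 gene CCND1 fell by 0.37 ± 0.10 in A549 (limma adjusted p = 0.0236, 0.00149 to 0.195 over the alternatives) and by 0.48 ± 0.10 in SW780 (adjusted p = 0.00606, 0.000151 to 0.0647). The A549 call on CCND1 ended under median scaling (adjusted p = 0.0608), with an untrended prior (0.103) and without A549 siEGFP replicate 1 (0.066), siFFluc replicate 1 (0.0746), siKDM3A replicate 1 (0.195) or siKDM3A replicate 2 (0.113). The SW780 call ended with an untrended prior (0.0516) and without SW780 siKDM3A replicate 1 (0.0647). The PPARA arrays of A549 read 41.6 and 22.2 under siEGFP, 83.6 and 113 under siFFluc and 173 and 123 under siKDM3A, with siFFluc again above siEGFP. PPARA, a nuclear receptor of fatty acid oxidation, was read at 148 ± 35.6 against 65.2 ± 41.1 (1.15 ± 0.23, limma adjusted p = 0.00718) in A549, a call that ended without A549 siKDM3A replicate 1 (adjusted p = 0.119). In SW780 it stood at 324 ± 15.2 against 207 ± 64.7 (0.66 ± 0.23, limma adjusted p = 0.092) and was not called. Its other probe sets were dim in A549 and read from -0.93 to 0.95 there.

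Sequence and position were compared last. All 49 genes are in the RefSeq gene table, 48 as protein-coding genes, on 18 chromosomes with at most 6 on 1 of them, and no 2 are neighbouring protein-coding genes. A promoter window was found for 41 of the 49. Their median was 23 CpG pairs and a GC content of 63.7%, against 14 and 58.3% over 27305 promoters and 27 and 65.3% over the 8119 promoters of genes with a control mean of at least 100 in both lines. Motifs were searched as exact letters on both strands. The GC box GGGCGG was in 26 of 41 windows (63.4%), against 44.6% of all promoters and 71.8% of the promoters of genes at that level. A CCAAT box was in 18 (43.9%, against 35.7% and 38%), CCGGAAG of ETS factors in 8 (19.5%, against 10.7% and 21.5%) and the E-box CACGTG in 6 (14.6%, against 7.43% and 10.8%). ACGTG, the core of the hypoxia response element, which CACGTG contains, was in 14 (34.1%, against 21.6% and 27.9%). The cyclic AMP response element TGACGTCA was in 3 windows, those of NECTIN2, SLC31A1 and TMF1 (7.32%, against 1.98% and 3.42%). TATAAA was in 2 (4.88%, against 11.9% and 5.06%), the NRF1 motif in 2 (4.88%, against 1.36% and 2.65%) and TGAGTCA of AP-1 in 1 (2.44%, against 4.92% and 2.85%). These shares are descriptions of 1 window for each gene.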

How the data were processed

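The authors deposited 1 table of MAS5 signal intensities on a linear scale for 54675 probe sets on 12 Affymetrix U133 Plus 2.0 arrays, per the submitters' processing notes, which name MAS5 without a version. Trimmed means (2% off each end) were 500.1 on every array, so the deposited intensities were already scaled to each other. The 62 control probe sets were removed. In the platform annotation of 2016, 41091 of the rest had a single symbol, 1801 had several and 11721 had none. Symbols were updated by gene number from RefSeq GRCh38.p14 (41037 matched).

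Signals were taken as log2(signal + 16), with the probe set of highest mean signal for each gene. Probe sets with a mean signal under the 40th percentile (33.6) were left out of the fit, which kept 14061 genes and all 49 members. The 6 group means were fitted with limma 3.58.1 in R 4.3.3 with a trended prior, and p-values were adjusted by Benjamini-Hochberg over all genes tested at 0.05. The contrasts were siKDM3A minus the average of the controls in each line, control SW780 minus control A549, siFFluc minus siEGFP in each line, and the difference of the latter between lines. Figures were drawn with matplotlib 3.10.9 in Python 3.11.15. The members, the lists and the rule were chosen with earlier results of these data known. Every member is named, with array values for the 12 of largest shared difference, the 5 largest differences between control lines and those called between control siRNAs. On simulated arrays with 200 of 14061 genes changed 2-fold the fit recovered 72.5% between control lines, 57% between control siRNAs in A549, 54.5% in SW780 and 42% in the difference between lines, and at 1.5-fold 54.5%, 37.5%, 32% and 14%. Of the genes called, in the same order, 3.33%, 8.1%, 2.68% and 10.6% were false at 2-fold. At 1.5-fold 6.03%, 7.41%, 3.03% and 0% were false, so some shares exceeded the threshold of 0.05. Alternatives were the pseudocount, scaling, filters, prior, thresholds, a replicate block and leaving out each array.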

Additional observations from a re-analysis of the deposited data

How the results depend on the processing

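The module numbered 48 to 66 genes with any 1 array left out and 41 to 56 under the other pseudocounts, scalings, probe set rule and control minimums. It numbered 84 when the fall was taken against the average of both control means and 4 with a fall of at least 1. Without SW780 siKDM3A replicate 2 it held 66 genes, 48 of them from the 49, and without SW780 siKDM3A replicate 1 it held 53, 42 of them from the 49. Genes called between control lines numbered 35 to 41 with 1 array left out and 36 to 41 under all other settings. Median scaling turned the sign of 7 control differences, to 0.18 for CENPBD2P and 0.0073 for PTCD2, each called before or after that scaling, and of AAR2, GTF2E2, GTF3C2, RNF44 and WBP2, called under neither. Quantile normalization turned 3 uncalled ones (ATXN7L3B, CENPBD2P and RRP1B). Without a change of sign 5 gained and 2 lost the call under median scaling and 3 gained and 4 lost it under quantile normalization, and the cause was not tested. Called between control siRNAs in A549 were 0 to 4 with 1 array left out and 2 after quantile normalization, in SW780 0 to 11 and 1 each after quantile normalization, without the filter on dim probe sets and with an untrended prior, and for the difference between lines 0 to 3. Of the listed KDM3A-regulated genes 2 to 4 were called in A549 and 1 to 2 in SW780 with 1 array left out, and 1 in SW780 with an untrended prior.

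Replicate numbers are shared by the groups, but same-numbered arrays did not deviate together (r of -0.03 to 0.019 over genes). Whether they shared a culture or a day cannot be read from this. With a replicate block 38 genes were called between control lines, 1 and 2 between control siRNAs in A549 and SW780, 0 for the difference, and 4 and 2 of the listed genes, the counts without the block. Fits that leave a group with 1 array assume that it varies like the others. With a control minimum of 200 MMACHC, CYP4F11, ST3GAL1 and CD99L2 left the module, and with a pseudocount of 64 these and EMB, HIPK2, PTX3 and TBC1D13 did.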
